A study of Mus musculus with 12 samples.

Results

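The 6 genes described here, Tlr2, Nfkbiz, Il6, Osm, Acod1 and Casp1, belong to the inducible inflammatory response of myeloid cells. They were taken by name from a table of 754 mouse genes, and all 6 were measured. The genes were chosen by function with their measured signal in these libraries known, above all the difference between ICH and sham in wild-type mice, for which Casp1, Acod1, Nfkbiz and Tlr2 had been named. Their signal is described in 11 libraries from HSC-sorted femur marrow of male mice, collected 3 days after surgery. The groups were Adrb3-/- mice after ICH (n = 3), Adrb3-/- mice after sham surgery (n = 3), wild-type C57/BL6 mice after ICH (n = 3) and wild-type mice after sham surgery (n = 2, with a further library shown apart). Adrb3-/- mice lack the gene for the adrenergic receptor beta 3, and the labels name no cell type in which that loss acts. The labels give no age. The design names 6 mice of each genotype for the 12 samples, and each library was taken as 1 mouse.

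Tlr2 is a surface receptor that recognises bacterial lipopeptides and signals through the NF-kB transcription factors. Nfkbiz encodes IkB-zeta, a nuclear protein that is itself induced by this signalling and is then needed with NF-kB for a later wave of genes, among them Il6. Il6 and Osm encode related secreted cytokines, Acod1 encodes the enzyme that makes itaconate in activated macrophages, and Casp1 encodes the inflammasome protease that cleaves the precursors of interleukin 1 beta and interleukin 18. Beta-adrenergic receptors signal through cyclic AMP, which is known to modify inflammatory gene expression in myeloid cells.

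The promoters of Il6, Tlr2 and Acod1 are shown because these genes are classical targets of Toll-like receptor signalling and because Tlr2 and Acod1 had similar profiles across the libraries. RefSeq's table for build GRCm38.p6 held promoters for 4 of the 6 genes, each with 250 bases before the annotated start of the gene and 50 after it. Il6 lies on the plus strand at chr5:30012864-30013163, Tlr2 on the minus strand at chr3:83841559-83841858 and Acod1 on the plus strand at chr14:103046762-103047061. Capitals mark matches, on either strand, to the kappa-B consensus bound by NF-kB, to the AP-1 motif TGANTCA and to TGACG, the short form of the cyclic AMP response element.
Il6: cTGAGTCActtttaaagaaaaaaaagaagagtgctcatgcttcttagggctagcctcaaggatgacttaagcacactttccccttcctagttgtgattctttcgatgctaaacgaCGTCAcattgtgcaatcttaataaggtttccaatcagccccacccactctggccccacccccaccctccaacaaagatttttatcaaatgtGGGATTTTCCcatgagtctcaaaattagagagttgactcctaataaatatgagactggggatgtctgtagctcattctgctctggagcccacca
Tlr2: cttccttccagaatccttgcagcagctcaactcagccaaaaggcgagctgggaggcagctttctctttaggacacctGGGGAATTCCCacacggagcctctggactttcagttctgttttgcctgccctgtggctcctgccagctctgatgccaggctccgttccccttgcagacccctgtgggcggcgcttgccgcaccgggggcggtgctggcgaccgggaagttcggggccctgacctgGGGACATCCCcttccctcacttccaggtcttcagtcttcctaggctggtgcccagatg
Acod1: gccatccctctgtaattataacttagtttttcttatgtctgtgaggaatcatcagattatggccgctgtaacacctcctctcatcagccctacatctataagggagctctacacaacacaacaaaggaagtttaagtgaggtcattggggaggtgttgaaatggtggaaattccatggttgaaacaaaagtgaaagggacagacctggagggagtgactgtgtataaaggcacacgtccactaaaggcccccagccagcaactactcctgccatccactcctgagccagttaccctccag
The Il6 promoter held 1 match to the kappa-B consensus, GGGATTTTCC, together with 1 match to TGANTCA and 1 to TGACG on the opposite strand. The Tlr2 promoter held 3 kappa-B matches, of which GGGGAATTCC and GGGAATTCCC overlap and GGGACATCCC lies across the annotated start. The promoters of Acod1 and Casp1 held none of these letters in the same window. Of all 32851 mouse promoters of this length in the table, 8.46% held a kappa-B match, 7.81% TGANTCA, 20.8% TGACG and 1.79% the full element TGACGTCA, which none of the 4 held. A match is a string of letters and not a measured binding site.

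The libraries differed in quality. In the 11, genes summed to between 110740 counts, in Adrb3-/- ICH replicate 2, and 556407 counts, in replicate 3 of wild-type sham. Wild-type sham replicate 1 was a failed reaction in which 1 count was scaled to a value of 15.5, and it enters no comparison below. The deposited value is the count multiplied by 1 factor per library, between 1.15 and 5.16 in the 11, and a gene under 20 counts carries an unscaled 20. In Adrb3-/- ICH replicate 2 that 20 therefore means a level under 103. Genes under 20 counts numbered 243 in that library and 104 in Adrb3-/- ICH replicate 1, against 27 to 61 in each other library compared. The 5 measured stem and progenitor markers summed to between 929 and 3672 in the 11 libraries, Kit was under 20 counts in 1 of them, and the neutrophil genes S100a8 and S100a9 took between 23.2% (Adrb3-/- sham replicate 3) and 55.3% of all gene counts. The label HSC is used here as the name of the sort. The table holds totals over all sorted cells, so a lower value from fewer cells of a type and a lower value from less RNA per cell cannot be told apart.

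Of the 66 values that the 6 genes gave in the 11 libraries, 63 were known to lie above the background of their library, taken as the mean plus 2 SD of its 8 negative control probes. The other 3 were all in Adrb3-/- ICH libraries. Acod1 gave 49 counts and Il6 gave 20 counts in replicate 1, where the background was 64.4 counts. Il6 was under 20 counts in replicate 2, where the background was 16.5 counts, so it is not known on which side it lay. Replicate 1 of this group also had the weakest positive control of the 11, with 6278 counts of the strongest control probe against a median of 31735.

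**Figure D1:**
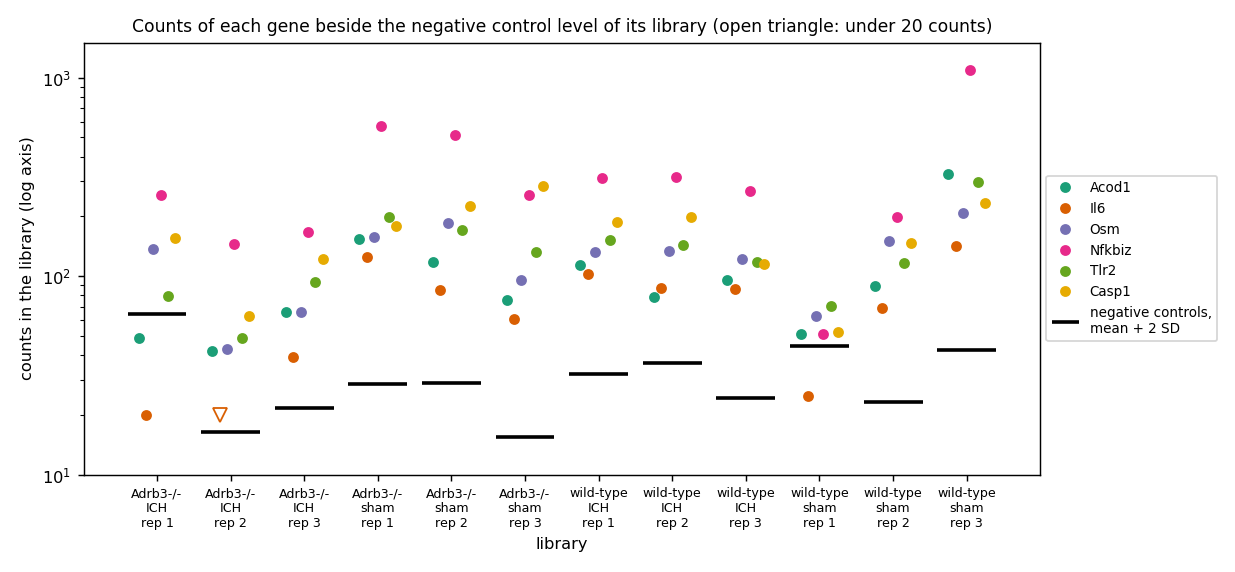
Counts of the 6 genes (points, log axis) in all 12 libraries, with the negative control level of each library (mean plus 2 SD, black bars) and an open triangle for a gene under 20 counts. Acod1 and Il6 lie under the bar in Adrb3-/- ICH replicate 1, where the bar stands at 64.4 counts, and Nfkbiz reaches 1091 counts in wild-type sham replicate 3.

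The receptor gene Tlr2 had values of 152, 253 and 200.1 in Adrb3-/- ICH libraries, of 296, 217 and 153 in Adrb3-/- sham libraries, of 185, 165 and 191 in wild-type ICH libraries and of 222 and 409 in wild-type sham libraries. The highest value was in wild-type sham replicate 3, and all 3 wild-type ICH values lay below both wild-type sham values. The Adrb3-/- groups overlapped each other and both wild-type groups. The group means were 202 ± 50.7, 222 ± 71.2, 180 ± 13.9 and 315 ± 132 (SD) in the same order of groups. No 2 neighbours in the order of these means were free of overlap.

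Nfkbiz, the gene of IkB-zeta, had values of 491, 748 and 357 in Adrb3-/- ICH libraries, of 849.5, 649 and 295 in Adrb3-/- sham libraries, of 379.9, 365 and 436 in wild-type ICH libraries and of 378 and 1491 in wild-type sham libraries. A single library, wild-type sham replicate 3, stood far above the rest, while replicate 2 of the same group lay within the wild-type ICH range. The coefficient of variation in wild-type sham was 84.3%, where counting error alone gives 5.45%. In Adrb3-/- sham it was 46.9%, against 5.04% from counting. In Adrb3-/- ICH it was 37.4%, against 7.49%, and in wild-type ICH 9.49%, against 5.80%.

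Il6 was the member nearest to background. It was given 38.4, 20 and 83.9 in Adrb3-/- ICH libraries, against 186, 108 and 70.4 in Adrb3-/- sham libraries. In wild-type mice it had 124, 100.2 and 139 in ICH libraries, against 131 and 193 in sham libraries. All 3 Adrb3-/- ICH values and 1 Adrb3-/- sham value, that of replicate 3, lay below the lowest wild-type value. Of the 3 Adrb3-/- ICH values, only that of replicate 3 was known to be above its background. For replicate 1 the 20 counts allow 23.4 to 59.3 (95% exact Poisson interval, counting error only) and the background of that library equals a value of 124. For replicate 2 the level is only known to be under 103. With these bounds in place of the values, Adrb3-/- ICH cannot be separated from wild-type ICH or from Adrb3-/- sham libraries for Il6 at this depth.

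Osm, the gene of oncostatin M, had values of 263, 222 and 142 in Adrb3-/- ICH libraries, of 233, 236 and 111 in Adrb3-/- sham libraries, of 162, 154 and 198 in wild-type ICH libraries and of 287 and 286 in wild-type sham libraries. Both wild-type sham values exceeded every other value of the gene. Their coefficient of variation was 0.237%, which is less than the 7.55% that counting error gives. The closeness of these 2 values is therefore no measure of the spread between mice. Unlike Nfkbiz and Acod1, Osm was not set apart by wild-type sham replicate 3.

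Acod1 had values of 94.0, 217 and 142 in Adrb3-/- ICH libraries, of 229, 149.9 and 87.7 in Adrb3-/- sham libraries, of 139, 89.8 and 156 in wild-type ICH libraries and of 169 and 445 in wild-type sham libraries. The highest value was again that of wild-type sham replicate 3, at 326 counts. The lowest was that of Adrb3-/- sham replicate 3, at 76 counts, so that the library extremes of Acod1 and Nfkbiz were the same. Without wild-type sham replicate 3 the remaining wild-type sham value lay within the Adrb3-/- range and above the wild-type ICH range.

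Casp1 varied least. It had values of 297, 325 and 262 in Adrb3-/- ICH libraries, of 264, 287 and 328 in Adrb3-/- sham libraries, of 228, 228 and 186 in wild-type ICH libraries and of 279 and 318 in wild-type sham libraries. The 3 wild-type ICH libraries held the 3 lowest values and overlapped with no other group. The highest value was 1.76 times the lowest, against 5.08 times for Acod1 and 5.05 times for Nfkbiz. For Il6 the deposited values give 9.63 times, a figure that rests on the 20 that stands for under 103. In Adrb3-/- ICH the coefficient of variation of Casp1 was 10.7% and counting error alone gave 10.1%, and in the other groups it was 9.33% to 11.2% where counting error gave 6.72% to 7.98%.

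**Figure D2:**
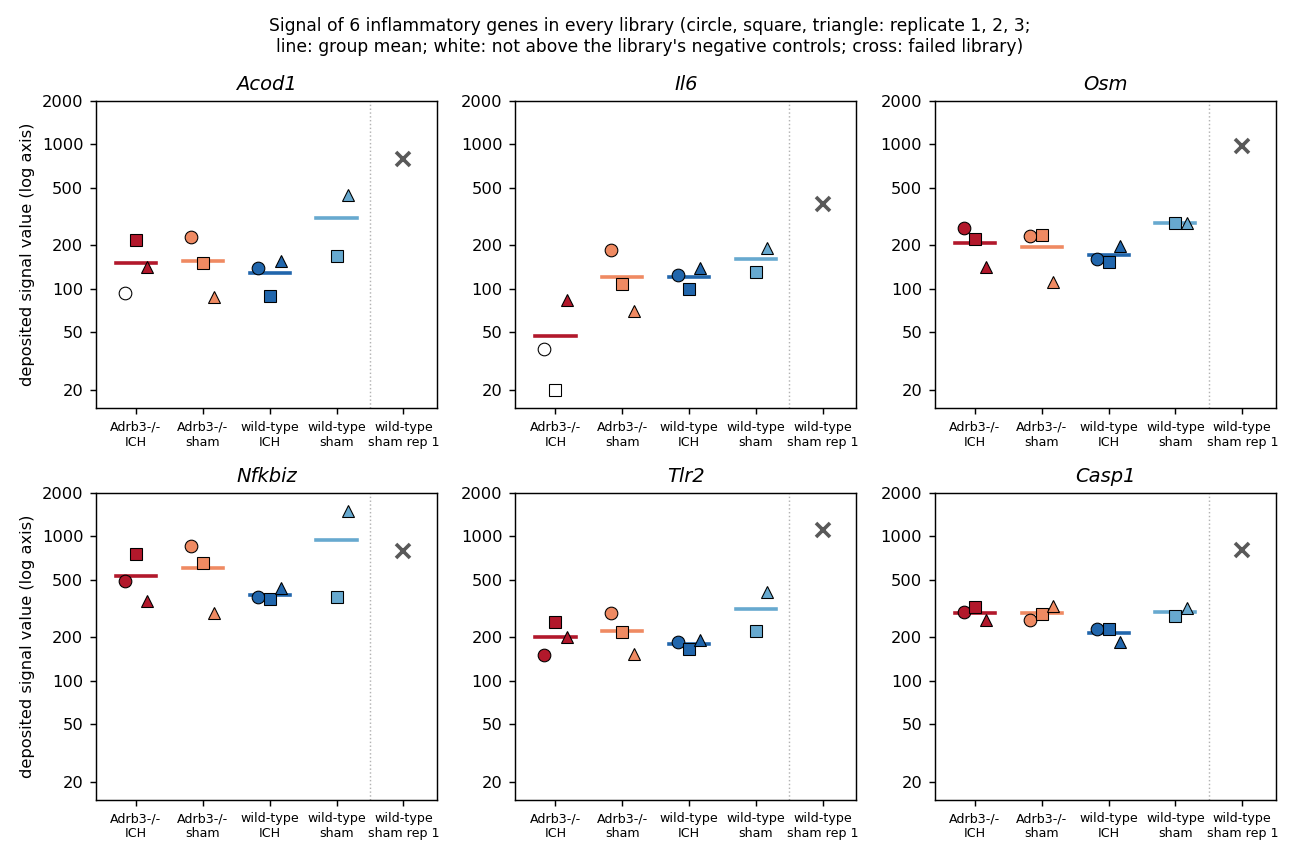
Deposited signal (log axis) of each gene in every library, by group, with group means as lines, the replicate number as the symbol, white symbols for values not known to be above the library's background and a cross for the failed library. The 3 wild-type ICH values of Casp1 lie below those of all other groups, wild-type sham replicate 3 stands highest for Tlr2, Nfkbiz, Il6 and Acod1, and the white square of Il6 at 20 stands for a level under 103.

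The members did not share 1 pattern across libraries. After log2(value + 1) and subtraction of each gene's mean over the 11 libraries, wild-type sham replicate 3 was above the mean for 6 of 6 genes, by 0.24 (Casp1) to 1.52 (Nfkbiz), and it held the highest value of 4 of the 6, where 10.5% of the 674 genes tested had their highest value in that library. Adrb3-/- sham replicate 3 held the lowest value of Acod1, Osm and Nfkbiz but the highest of Casp1, where 14.7% of all genes had their lowest value in that library. It also had the lowest share of S100a8 and S100a9 and the highest sum of the 13 monocyte and macrophage markers, 13772. Adrb3-/- sham replicate 1, of the same group, was above the mean for 5 of 6 genes, all but Casp1. The SD over the 11 libraries was 0.25 for Casp1, 0.43 for Tlr2, 0.45 for Osm, 0.68 for Acod1, 0.70 for Nfkbiz and 0.96 for Il6, and 14.8% of the genes tested had a smaller SD than Casp1 and 95.7% a smaller SD than Il6, whose SD includes the floor value of 20.

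**Figure D3:**
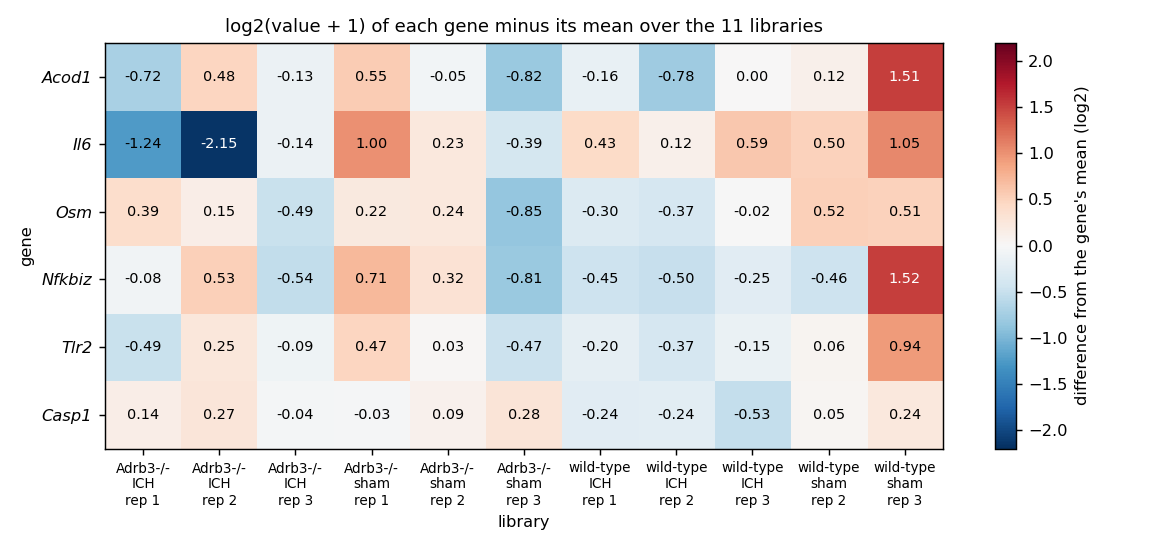
Each cell gives log2(value + 1) of a gene in a library minus the gene's mean over the 11 libraries (blue below, red above). The column of wild-type sham replicate 3 is red throughout, up to 1.52 for Nfkbiz, the column of Adrb3-/- sham replicate 3 is blue except for Casp1, and Il6 is lowest in Adrb3-/- ICH replicate 2 at -2.15, a value that stands for under 20 counts.

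Genes with a similar profile were ranked by the root mean square difference of these centred log2 values over the 11 libraries, among 491 genes with at least 20 counts in each. Il6 could not be ranked for want of counts. Nearest to the mean profile of the other 5 genes were Gadd45b, a stress-induced gene (0.22), Nlrp3, an inflammasome sensor (0.23), Cd14, the co-receptor of Toll-like receptors (0.26), the phosphatase gene Dusp1 (0.26) and Clec7a, which encodes the glucan receptor dectin-1 (0.27), where the median over all genes compared was 0.50. Acod1 lay closest to the cytokine gene Tnf (0.26) and the chemokine gene Cxcl10 (0.26), with the member Tlr2 next (0.27). Tlr2 lay closest to Cd14 (0.22), Clec7a (0.23) and Gadd45b (0.23). Nfkbiz lay closest to Ccrl2, a chemerin-binding receptor (0.32), Dusp1 (0.33) and Skil, a regulator of TGF-beta signalling (0.34). The ranking asked for 20 counts and not for signal above background. In Adrb3-/- ICH replicate 1 the background equals a value of 124. Acod1 (94.0), Cxcl10 (80.6), Cd14 (99.8), Gadd45b (107) and Ccrl2 (119) lay under it there, and the other neighbours named in this paragraph lay above it.

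The remaining members had these neighbours. Osm lay closest to G6pdx, an enzyme of the pentose phosphate pathway (0.23), Gsn, which severs actin filaments (0.23), and the tubulin gene Tuba4a (0.24). Casp1 lay closest to the transcription factor gene Irf2 (0.14), Vwa5a (0.16) and Cstb, an inhibitor of cathepsins (0.17), while a profile with no variation at all would have differed from Casp1 by 0.24. Tnf, for example, had 414 in wild-type sham replicate 3 and 87.7 in Adrb3-/- sham replicate 3, the same extremes as Acod1. These rankings describe 11 libraries. Wild-type sham replicate 3 had the largest deviation from the gene's mean for Acod1 (1.51), Nfkbiz (1.52) and Tlr2 (0.94) and so carries much of their variation. It lay at 0.51 for Osm, where Adrb3-/- sham replicate 3 lay at -0.85. For Casp1 it lay at 0.24, where wild-type ICH replicate 3 lay at -0.53.

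ICH was first set against sham surgery within the Adrb3-/- genotype, which addresses the response to ICH in the absence of the receptor gene. This contrast shares no library with the wild-type comparison in which earlier results of these data had named Casp1, Acod1, Nfkbiz and Tlr2. Its SE and p still use a spread estimated from all 11 libraries. The genes were also chosen with their signal in these libraries known, so its test is not independent of the choice. With only its own 2 groups, the SE of Il6 was 0.58 (limma adjusted p = 0.656). None of the 6 genes passed in it, and 1.04% of the 674 genes tested did (limma, adjusted p under 0.05 by Benjamini-Hochberg over all genes), all of them lower after ICH. That count was 7, and it ran from 0 to 51 with single libraries left out, highest without Adrb3-/- ICH replicate 3. At an unadjusted p under 0.05 there was 1 of the 6, Il6, and 10.8% of all genes. With values at 20 raised to the worth of 20 counts, 5 genes passed and 51 of 697 had an unadjusted p under 0.05 (limma). The 6 genes had a median log2 change of -0.06, with 4 below 0, and all genes tested had a median of -0.16. The ICH and sham values overlapped for all 6 genes, while 10.2% of all genes were lower without overlap and 1.63% higher. Without Adrb3-/- sham replicate 3, Il6 was lower without overlap, as were 15.4% of all genes.

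Il6 stood at a log2 change of -1.46 (SE 0.49, limma adjusted p = 0.3, 95% interval -2.55 to -0.36), with means of 47.4 ± 32.9 in ICH and 121 ± 58.8 in sham libraries (SD, n = 3 each). When the value at 20 was replaced by 103, the level that 20 counts would have, the change was -0.69 (SE 0.41, limma adjusted p = 0.909). Of the 3 ICH values only 1 was known to be above its background, so the interval as deposited rests in part on the floor and is no test of Il6. Without Adrb3-/- ICH replicate 3 the change was -1.98 (limma adjusted p = 0.0271). Neither remaining ICH value was then known to be above its background, so the fit is set by the floor and is no test of Il6. Over 18 other settings of the analysis the limma adjusted p of Il6 ran between 0.0271 and 0.998. The other members gave intervals that include 0. Acod1 stood at -0.02 (SE 0.48), Osm at 0.15 (SE 0.34), Nfkbiz at -0.10 (SE 0.53), Tlr2 at -0.12 (SE 0.32) and Casp1 at 0.01 (SE 0.21), with limma adjusted p between 0.927 and 0.983.

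The widths of these intervals set what could be seen. For Casp1 the 95% interval was -0.45 to 0.47 on the log2 scale, for Tlr2 -0.84 to 0.60, for Acod1 -1.07 to 1.04 and for Nfkbiz -1.28 to 1.07. The neutrophil markers fixed for this tissue (8 of 12 measured) summed to 279488 to 516569 in Adrb3-/- ICH and 91681 to 360244 in Adrb3-/- sham libraries. The monocyte and macrophage markers (13 of 13 measured) summed to 1577 to 4666 in Adrb3-/- ICH and 7566 to 13772 in Adrb3-/- sham libraries, and Mertk alone of these was under 20 counts, in 1 of the 11 libraries. Sums of mast cell, basophil and eosinophil markers were 1249.9 to 1729 in Adrb3-/- ICH and 2225 to 3011 in Adrb3-/- sham libraries. Few genes set some of these sums. Over the 11 libraries S100a8, S100a9 and Camp had medians of 142839, 144150 and 30308, and the other neutrophil markers 263 to 748. Prg2 had a median of 1349, and the other markers of its list 114 to 205. The directions of single markers were not compared. The part of these cells in the values of the 6 genes was not tested.

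**Figure D4:**
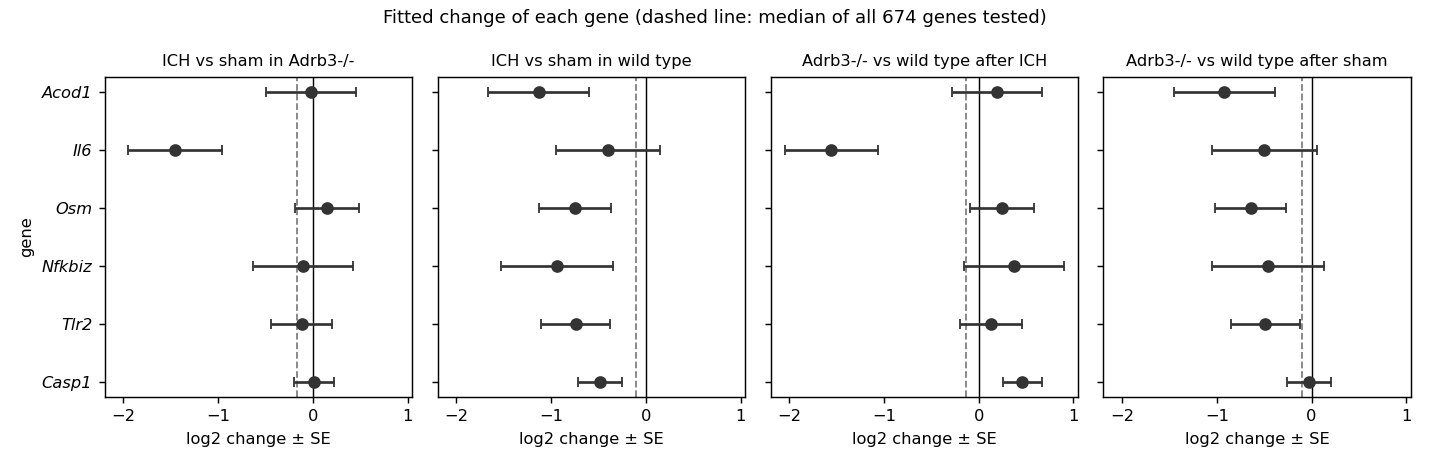
Fitted log2 change of the 6 genes (points, bars ± SE) in the 4 comparisons, with the median of all 674 genes tested as a dashed line. In the Adrb3-/- comparison the points other than Il6 lie within 0.15 of 0, and in the wild-type comparison all 6 lie below 0. Il6 at -1.46 and -1.55 rests in part on 2 values not known to lie above the background of their libraries.

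In wild-type mice the contrast between ICH and sham was among the values used to choose the genes, so it is given as a description with no test. All 6 genes stood lower after ICH on the log2 scale, as did 483 of all 674 genes tested (median -0.11). Acod1 stood at -1.13 (SE 0.53), with means of 128 ± 34.2 in ICH (n = 3) and 307 ± 196 in sham libraries (n = 2). Osm stood at -0.74 (SE 0.38), with 171 ± 23.2 in ICH and 286 ± 0.679 in sham libraries. Il6 stood at -0.40 (SE 0.55), with 121 ± 19.7 and 162 ± 43.7. The ICH values lay below both sham values for Acod1, Osm, Tlr2 and Casp1, and overlapped for Il6 and Nfkbiz, where 14.1% of all genes were lower without overlap and 3.12% higher.

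The size of these differences depended on wild-type sham replicate 3. Without it, which leaves a single sham library, Acod1 stood at -0.43, Tlr2 at -0.30, Il6 at -0.12 and Nfkbiz at 0.06, whereas Osm stood at -0.75 and Casp1 at -0.39, against -0.74 and -0.48 with it. When wild-type sham replicate 2 was left out instead, Acod1 stood at -1.83, Nfkbiz at -1.92, Tlr2 at -1.18 and Il6 at -0.68. Without replicate 3 the ICH values of Acod1, Osm, Tlr2 and Casp1 were still all below the remaining sham value, as were those of 35.9% of all genes. No gene of the table passed in this comparison, and 0% had an unadjusted p under 0.05 (limma). Neutrophil marker sums were 252949 to 323311 in wild-type ICH and 443025 to 448195 in wild-type sham libraries, and those of monocyte and macrophage markers 4484 to 5163 in wild-type ICH and 3157 to 5883 in wild-type sham libraries. Their part in the values was not tested.

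Between the genotypes after ICH, the wild-type libraries are the same as above, so the values are likewise a description. Casp1 was higher in every Adrb3-/- ICH library, with a mean of 295 ± 31.4 in Adrb3-/- and 214 ± 24.0 in wild-type mice (SD, n = 3 each) and a log2 change of 0.46 (SE 0.21), where 4.9% of all genes were higher without overlap. Il6 stood at -1.55 (SE 0.49) as deposited and at -0.78 when the value at 20 was replaced by 103. Its deposited values did not overlap, as those of 8.75% of all genes that were lower did not, but with the bounds given above for replicates 1 and 2 the groups cannot be separated. The other 4 genes overlapped and stood between 0.13 (Tlr2) and 0.37 (Nfkbiz), where 273 of all 674 genes stood above 0. Without Adrb3-/- ICH replicate 2, Acod1 stood at -0.11, Tlr2 at -0.05 and Nfkbiz at 0.09, and without replicate 1, Osm stood at 0.06, Acod1 at 0.49 and Tlr2 at 0.32. Without replicate 1, Tlr2 was also higher without overlap, as were 13.6% of all genes. Marker sums of mast cells, basophils and eosinophils (6 of 7 measured) were 1249.9 to 1729 in Adrb3-/- ICH and 2898 to 8081 in wild-type ICH libraries, without overlap. Neutrophil and macrophage sums, given above for each group, overlapped, and the part of these cells in the values was not tested. Of all genes tested, 0% passed (limma) and 10.7% had an unadjusted p under 0.05. With values at 20 raised to the worth of 20 counts, 35 of 697 genes had an unadjusted p under 0.05 (limma).

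After sham surgery, with the same sham libraries as before, Osm was lower in every Adrb3-/- library, with a mean of 193 ± 71.6 in Adrb3-/- mice (n = 3) and 286 ± 0.679 in wild-type mice (n = 2), at -0.64 (SE 0.38), where 16.3% of all genes were lower without overlap and 10.4% higher. The other 5 genes overlapped. Acod1 stood at -0.92 (SE 0.53), Il6 at -0.50 (SE 0.55), Tlr2 at -0.49 (SE 0.36), Nfkbiz at -0.46 (SE 0.59) and Casp1 at -0.03 (SE 0.23). Of all genes tested, 418 of 674 stood below 0, with a median of -0.10. Without wild-type sham replicate 3, Nfkbiz stood at 0.53, Acod1 at -0.22, Il6 at -0.22 and Tlr2 at -0.05, and without replicate 2, Acod1 stood at -1.62 and Nfkbiz at -1.45. Without Adrb3-/- sham replicate 3, Osm stood at -0.28, Il6 at -0.16, Tlr2 at -0.25 and Nfkbiz at -0.015. The neutrophil sums, set mostly by S100a8 and S100a9, were lower in every Adrb3-/- sham library than in both wild-type sham libraries. The monocyte and macrophage sums were higher in every Adrb3-/- sham library, and the part of these cells in the values was not tested. Of all genes tested, 0% passed (limma) and 4.75% had an unadjusted p under 0.05.

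The interaction, the ICH change in Adrb3-/- minus that in wild-type mice, contains the wild-type comparison and is also given with no test. It was positive for Acod1 (1.11, SE 0.71), Osm (0.89, SE 0.51), Nfkbiz (0.83, SE 0.79), Tlr2 (0.62, SE 0.49) and Casp1 (0.49, SE 0.31), and negative for Il6 (-1.06, SE 0.74), which stood at -0.29 when the value at 20 was replaced by 103. Without wild-type sham replicate 3, Nfkbiz stood at -0.16, Acod1 at 0.42 and Tlr2 at 0.18, and without Adrb3-/- sham replicate 3, Nfkbiz stood at 0.39 and Osm at 0.53. Of all genes tested, 305 of 674 had a positive interaction, with a median of -0.06. The interaction passed for 0% of all genes (limma), with 4.3% at an unadjusted p under 0.05.

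Around the 6 genes, 7 lists of the same pathway were examined, with 110 genes of which 65 were measured and 58, the 6 included, passed the filter on low values. For ICH against sham in Adrb3-/- mice none of the 58 passed (limma), and 3 of the 58 had an unadjusted p under 0.05, namely Nfkbie, Il18 and Il6. Toll-like receptors and their adaptors stood below 0 in 11 of 12 genes with a median of -0.20, between 0.24 for Tlr6, a partner of Tlr2, and -0.95 for Tlr1, the other partner. NF-kB subunits and regulators stood below 0 in 5 of 5 genes with a median of -0.18, from -0.07 for the subunit gene Nfkb1 to -1.38 (SE 0.42, limma adjusted p = 0.224) for Nfkbie, an inhibitor. Of all genes tested 452 of 674 stood below 0. Without Adrb3-/- ICH replicate 1 these counts were 8 of 12 (median -0.08) for Toll-like receptors and adaptors, 3 of 5 (median -0.08) for NF-kB genes and 380 of 674 for all genes. Without Adrb3-/- sham replicate 3 they were 9 of 12 (median -0.21), 4 of 5 (median -0.59) and 464 of 674.

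Downstream genes were grouped by product. Inflammasome genes stood below 0 in 3 of 6 with a median of -0.07, between 0.64 for Il1b and -0.76 for Il18, both of whose protein precursors caspase 1 cleaves. Induced cytokines and chemokines stood below 0 in 11 of 16 with a median of -0.29, with Il6 the lowest and Il1b the highest. Receptors and signalling genes of the IL-6 family stood below 0 in 2 of 6 with a median of 0.08, between 0.24 for the transcription factor gene Stat3 and -0.79 for Socs1, a feedback inhibitor. Induced effector enzymes and regulators stood below 0 in 4 of 7 with a median of -0.02, between 0.55 for Hdc, the histamine-forming enzyme, and -0.27 for Irf1, an interferon-induced transcription factor. Immediate early genes stood below 0 in 4 of 7 with a median of -0.27, between 0.39 for Btg2 and -0.65 for Jun. Without Adrb3-/- ICH replicate 1 the immediate early genes stood above 0 in 7 of 7 (median 0.39) and effector enzymes in 6 of 7 (median 0.22), while IL-6 family genes stood below 0 in 5 of 6 (median -0.27) and cytokines and chemokines in 9 of 16 (median -0.06). Without Adrb3-/- sham replicate 3 the counts below 0 were 15 of 16 for cytokines and chemokines (median -0.57), 6 of 7 for immediate early genes (median -0.70), 5 of 6 for inflammasome genes (median -0.26) and 4 of 6 for IL-6 family genes (median -0.10).

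In wild-type mice induced cytokines and chemokines stood below 0 after ICH in 16 of 16 genes with a median of -0.46, and induced effector enzymes in 7 of 7 with a median of -0.46, where 483 of all 674 genes stood below 0 with a median of -0.11. Without wild-type sham replicate 3 these were 13 of 16 (median -0.17) and 6 of 7 (median -0.37). Of all genes tested, 470 of 674 then stood below 0 (median -0.19). For NF-kB subunits and regulators the count turned round, with 4 of 5 below 0 (median -0.34) in the 11 libraries and 0 of 5 (median 0.31) without that library. The same held for immediate early genes, at 6 of 7 (median -0.38) and 1 of 7 (median 0.37). Toll-like receptors and their adaptors stood below 0 in 7 of 12 genes (median -0.07), inflammasome genes in 4 of 6 (median -0.35) and genes of IL-6 family signalling in 5 of 6 (median -0.14). Without wild-type sham replicate 3 these were 9 of 12 (median -0.29), 4 of 6 (median -0.17) and 4 of 6 (median -0.05).

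**Figure D5:**
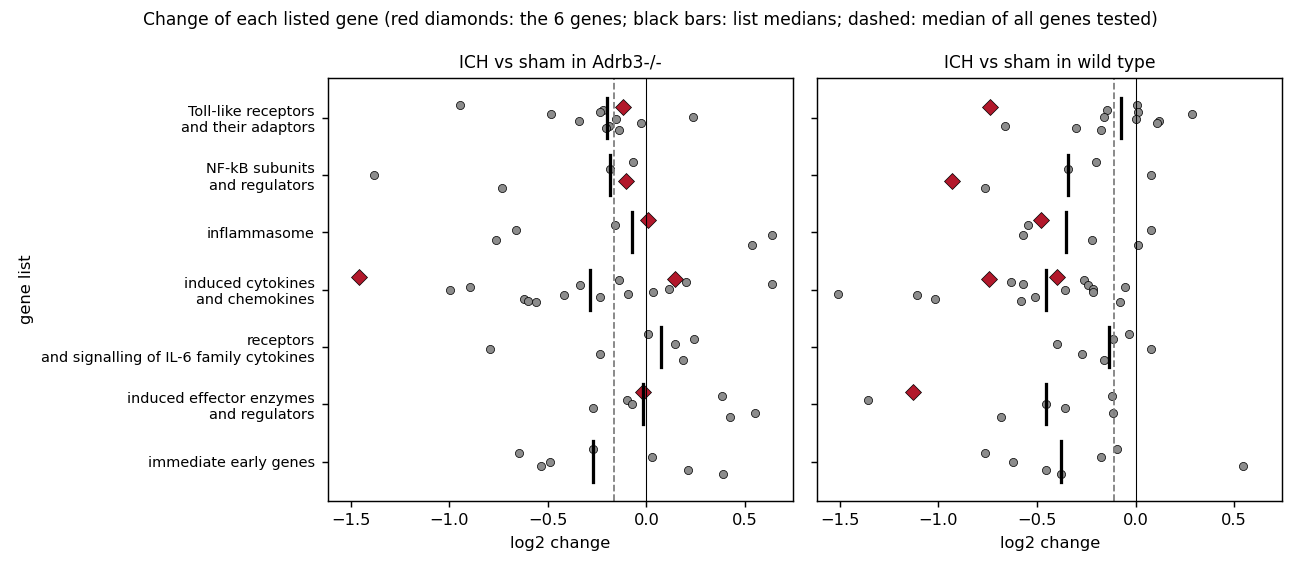
Log2 change after ICH of each listed gene that passed the filter (points), in Adrb3-/- mice on the left and wild-type mice on the right, with the 6 genes as red diamonds, list medians as black bars and the median of all genes tested as a dashed line. In wild-type mice all 16 cytokine and chemokine genes lie below 0, and in Adrb3-/- mice 11 of the 16 do, with Il6 at -1.46.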

How the data were processed

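The deposited table gives a signal per gene and library. From the values, the signal is a whole count multiplied by 1 factor per library (whole within 0.00462 for values up to 1000 counts), genes under 20 counts carry 20, and control probes are unscaled. No source used here names the instrument, the panel or the scaling. Counts under 20 are lost in this form, so no count model was used. The filter on low values required a gene's mean in the 11 libraries to exceed the mean background of 52.2 (mean plus 2 SD of the negative controls, times each library's factor), which kept 674 genes and all 6 members and removed 80. Limma 3.58.1 in R 4.3.3 was fitted to log2(value + 1) with 4 group means and a spread per gene shared by all groups. The added 1 slightly understates changes of low genes. The unscaled 20 can overstate a drop where a library's factor is high. Il6 for ICH against sham in Adrb3-/- mice stood at -1.46 as deposited and at -0.69 with values at 20 raised to the worth of 20 counts. Tests are two-sided. The fit was also run on simulated normal values without the floor at 20, so that run does not bear on values at the floor.

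Alternatives were 12 libraries, each library left out, the replicate block, values at 20 raised to the worth of 20 counts, a pseudocount of 10, no filter, median centring and fits of single comparisons. The members and gene lists were chosen with earlier results of these data known. Besides the 6 members, the genes named are the nearest profiles, the lowest and highest of each list for ICH against sham in Adrb3-/- mice, and Nfkbie, Il18 and Tnf, of which Tnf was chosen as an example after its values were seen. Markers of B cells (1 of 5 measured; sums of 356 to 899.8), T and NK cells (2 of 7; 299.9 to 626), erythroid cells and megakaryocytes (2 of 7; 299 to 566) and mast cells, basophils and eosinophils (6 of 7; 1249.9 to 8081) were summed over the 11 libraries. All 6 symbols matched the gene table of GRCm38.p6. Where the labels do not say that samples are separate mice, p-values measure only the spread between these samples.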

Additional observations from a re-analysis of the deposited data

Results flagged for a closer look

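In wild-type sham replicate 1, the failed library that enters no comparison, 5 of the 6 genes lay above its own background of 44.6 counts, at between 51 (Acod1 and Nfkbiz) and 71 counts (Tlr2), and Il6 at 25 counts did not. The deposited values there were 791 for Acod1, 388 for Il6, 977 for Osm, 791 for Nfkbiz, 1101 for Tlr2 and 807 for Casp1, each the product of few counts and a factor of 15.5. The strongest positive control probe gave 79 counts in that library. The share of all genes above its background was not counted, so nothing particular to the 6 genes is read from these counts.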

How the results depend on the processing

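The number of genes passing for ICH against sham in Adrb3-/- mice was 7 in the reported fit. It was 0 with 12 libraries, 0 with the replicate block and 0 with only the groups of the comparison. It was 1 with median centring, 2 with no filter on low values and 5 with values at 20 raised to the worth of 20 counts. With single libraries left out it was 0 to 51. It was 51 without Adrb3-/- ICH replicate 3, 24 without replicate 1 and 3 without replicate 2 of that group, 2 without Adrb3-/- sham replicate 1, and 0 without Adrb3-/- sham replicate 2 or 3 or any 1 wild-type ICH library. For Adrb3-/- against wild type after ICH, 0 in the reported fit, it was 2 with no filter and 0 to 49 with single libraries left out (49 without Adrb3-/- ICH replicate 3, 5 without replicate 1). For each of the other 3 comparisons it was 0 to 1 with single libraries left out. Without both Adrb3-/- ICH replicate 1 and wild-type sham replicate 3, chosen after seeing the data, the counts were 27 and 9 in the first 2 comparisons. The causes were not tested.

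In Adrb3-/- mice the direction of the ICH change turned for members near 0. With median centring it was 0.10 for Acod1, 0.017 for Nfkbiz and 7.1e-04 for Tlr2. With single libraries left out it ran between -0.38 and 0.31 for Acod1, -0.21 and 0.40 for Osm, -0.55 and 0.21 for Nfkbiz, -0.36 and 0.11 for Tlr2, and -0.063 and 0.093 for Casp1. For Il6 it ran between -1.98 and -0.97, below 0 in all 18 alternatives. Without the 2 libraries together it was 0.28 for Acod1, -0.04 for Osm and 0.07 for Tlr2. Where wild-type sham is left with 1 library, that library is assumed to vary like the other groups.

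Replicate numbers were not used to pair the samples in the reported fit. Same-numbered libraries of 2 groups had deviations that correlated at -0.42 to 0.15 over genes. Of the Adrb3-/- ICH and sham libraries 3 of 6 correlated best with their own number, and of the Adrb3-/- and wild-type ICH libraries 0 of 6. Deviations from the mean of so few libraries are tied to each other, so these values cannot settle whether the numbers pair the samples. The replicate block moved the count for ICH against sham in Adrb3-/- mice to 0 and left the other 4 at 0. Depth limits Il6 most, with 20 counts worth 103 in Adrb3-/- ICH replicate 2.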
